A study of Mus musculus with 12 samples.

Results

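The receptors described here are T cell receptor beta chains with a pair of hydrophobic residues at the centre of the CDR3, the loop that meets the peptide. Members were chosen from the deposited contig table by a sequence rule: a productive beta chain (TRB) in a called cell, a CDR3 of 12 to 16 residues, and residues at positions 6 and 7 (the first cysteine being position 1) that were both F, I, L, M, V, W, Y or C. Each combination of TRBV gene and CDR3 nucleotide sequence counted once per library. The rule found 74 hydrophobic-pair CDR3 among 9167 distinct CDR3 of these lengths, and the other 9093 served as the comparison. No measured quantity other than the sequence entered the rule.

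The libraries came from CD45+ immune cells of mammary tumours in Balb/c mice, and CD45 is a surface phosphatase of leukocytes. Every sample record names the same treatment protocol, 3 weeks of cyclophosphamide (an alkylating chemotherapy) with pexidartinib (an inhibitor of the CSF1 receptor that macrophages need), and a separate field marks each sample as treated or untreated. Of 11 library names in the table, 6 carried a number that matched a sample title: CTX, CTX2, Combined and CSF1R match treated samples, PBS1 matches an untreated one, and PBS2 matches a treated receptor sample as well as an untreated expression sample. The names themselves are not defined by the labels, nor do the labels say which libraries came from separate mice, so that any p-value over libraries measures the spread between these libraries only. CSF1R is tied to its group and not to a single sample, because its number begins 2 treated expression titles. PBS1 is tied through the number of an expression sample only, and its receptor number matches no label. All receptor samples listed are labelled treated.

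A beta chain is joined from a V, a D and a J gene, and random bases are added at both joins. The ends of the CDR3 are therefore read from the V and J genes, and its centre from what is left of the D gene and from added bases. Work in mice has tied hydrophobic residues at positions 6 and 7 of the beta CDR3 to T cells that respond strongly to self peptides. The mouse locus has the D genes TRBD1 and TRBD2. TRBD1 can join either J cluster, while TRBD2 lies downstream of the TRBJ1 genes and is normally joined to TRBJ2 only. Read in its different frames, TRBD2 can encode leucine or tryptophan, which TRBD1 cannot in the usual reading direction.

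The sequences below show the 3 members of each library with the most cells, ties being broken by UMIs (unique molecular identifiers, which count captured molecules), and thus where the hydrophobic pair sits in the join. They are CDR3 nucleotide sequences as deposited, 5′ to 3′ on the coding strand, with the codons of positions 6 and 7 in capitals. PBS1 held 1 member.
PBS1, TRBV1 with TRBJ2-1: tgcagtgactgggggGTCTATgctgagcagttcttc
PBS2, TRBV13-3 with TRBJ2-5: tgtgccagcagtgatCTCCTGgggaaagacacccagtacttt
PBS2, TRBV4 with TRBJ2-7: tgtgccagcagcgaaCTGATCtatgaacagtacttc
PBS2, TRBV31 with TRBJ2-3: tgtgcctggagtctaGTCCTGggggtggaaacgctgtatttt
CSF1R, TRBV15 with TRBJ2-5: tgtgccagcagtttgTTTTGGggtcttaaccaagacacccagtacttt
CSF1R, TRBV13-2 with TRBJ2-4: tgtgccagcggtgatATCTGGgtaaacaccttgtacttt
CSF1R, TRBV20 with TRBJ2-1: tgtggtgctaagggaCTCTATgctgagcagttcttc
CTX, TRBV13-3 with TRBJ1-6: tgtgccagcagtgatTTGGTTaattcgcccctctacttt
CTX, TRBV1 with TRBJ2-1: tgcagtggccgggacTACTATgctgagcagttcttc
CTX, TRBV20 with TRBJ2-1: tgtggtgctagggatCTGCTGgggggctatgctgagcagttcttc
CTX2, TRBV13-3 with TRBJ2-3: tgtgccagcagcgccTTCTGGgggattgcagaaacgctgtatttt
CTX2, TRBV13-2 with TRBJ2-7: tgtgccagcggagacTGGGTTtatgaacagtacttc
CTX2, TRBV13-2 with TRBJ2-3: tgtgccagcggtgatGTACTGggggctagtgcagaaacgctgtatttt
Combined, TRBV31 with TRBJ2-3: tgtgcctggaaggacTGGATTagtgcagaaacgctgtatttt
Combined, TRBV17 with TRBJ2-1: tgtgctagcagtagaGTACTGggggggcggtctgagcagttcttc
Combined, TRBV13-3 with TRBJ1-3: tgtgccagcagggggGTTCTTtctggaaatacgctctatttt

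Several patterns recur in these lines. A tryptophan codon (TGG) or a leucine codon (CTG) is often followed at once by a run of G, as in the CTX2 member with TTCTGGggg and the PBS2 member with CTCCTGggg. In the 12-residue TRBJ2-1 lines, a tyrosine codon (TAT) at position 7 runs straight into gctgagcagttcttc. In the CSF1R member with TRBV20, for example, the CDR3 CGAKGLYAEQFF has its leucine codon (CTC) just before that tyrosine.

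The libraries differed in depth, from 245 called cells in PBS1 to 7629 in Combined, and from 6807 UMIs in PBS1 to 121305 in Combined. Productive TRB contigs were found in 10295 cells. Of 11468 barcodes of called cells, 50 occurred in 2 or more libraries, none of them in a cell of a member. Contigs of immunoglobulin or of gamma or delta chains, which would mark other lineages, numbered 12 in called cells and 0 in the 75 cells of the members. Combined supplied 49 of the 74 members, so pooled values are mostly values of Combined.

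Hydrophobic pairs were rare in every library. They made up 1 of 122 CDR3 in PBS1 (0.820%), 4 of 358 in PBS2 (1.12%), 11 of 777 in CSF1R (1.42%), 4 of 354 in CTX (1.13%), 5 of 458 in CTX2 (1.09%) and 49 of 7098 in Combined (0.690%). Pooled, the share was 0.807% (exact Clopper-Pearson 95% interval 0.634 to 1.01, covering counting error only). CSF1R was highest and Combined lowest, and their intervals (0.709 to 2.52 and 0.511 to 0.912) overlapped. Without Combined the pooled share was 1.21%.

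**Figure D1:**
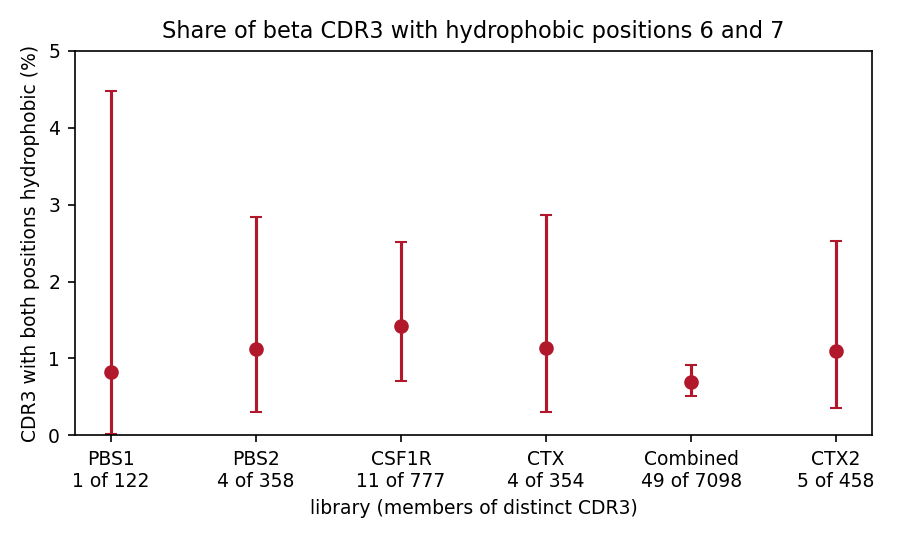
Share of distinct beta CDR3 of 12 to 16 residues with both positions 6 and 7 hydrophobic (y axis, %) in each library (x axis, with members and CDR3 counted). Points are shares and bars exact 95% intervals, and all 6 libraries lie between 0.690% and 1.42% with overlapping intervals.

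No library stood apart after correction. Combined had a lower share of members than the other 5 libraries together (0.690% against 1.21%), with an adjusted p of 0.151 over the 6 comparisons by Fisher's exact test (0.0252 before adjustment). CSF1R had a higher share than the rest (1.42% against 0.751%, Fisher's exact test, p = 0.0572, adjusted 0.172). These tests compare rearrangements of single libraries and not conditions. The 4 libraries named by number alone together reached 1.24% and the 2 whose numbers start with JR, CTX2 and Combined, 0.715%.

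The share in treated libraries averaged 1.08% ± 0.298 (SD, n = 4). PBS1, the 1 library tied to an untreated sample without a conflict, stood at 0.820% on a single member. That tie is to an expression sample, since the receptor number of PBS1 matches no label. The difference, treated minus untreated, was 0.262 percentage points, and all 5 ways of drawing the untreated library gave an exact two-sided permutation p of 0.6 where 0.2 is the smallest possible. The difference was 0.00154 without possible doublets, 0.113 with PBS2 as untreated, 0.151 without CSF1R, and 0.891 with F, I, L, V and W alone, when PBS1 had no member (exact permutation p from 0.2 to 1). The interval of PBS1 alone, 0.0208 to 4.48%, covers all treated libraries, so a difference of this size was not detectable at this depth. The design could not reach 0.05 with PBS2 in either arm (smallest possible p 0.0667 and 0.167).

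The pairs drew on few residues. Leucine filled position 6 in 29 members and position 7 in 20, valine 17 and 15, and tryptophan 9 and 22. Tyrosine filled 10 and 10, isoleucine 5 and 5, phenylalanine 4 and 0, and methionine 0 and 2. Cysteine, though allowed by the rule, was found at neither position in any of the 9167 CDR3. The commonest pairs were LL (10 members, in 5 libraries), LV (8), VW and WV (7 each), VL and YW (6 each) and LW (5). Tryptophan took position 7 more often than position 6 in members (29.7% against 12.2%), while among CDR3 with a hydrophobic residue at only 1 of these positions it made up 27.5% at position 7 and 27.2% at position 6. These counts describe what the rule selected and carry no test.

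Hydrophobic neighbours were less common at positions 6 and 7 than just before them. A pair of the listed residues stood at positions 5 and 6 in 2.59% of CDR3 (237), at 6 and 7 in 0.807% (74), at 7 and 8 in 1.13% (104), at 8 and 9 in 0.949% (87) and at 9 and 10 in 0.535% (49). Positions 4 and 5 held such a pair in 0.120% (11). The pair at 5 and 6 was more frequent than that at 6 and 7 in 6 of 6 libraries, at 2.46% against 0.820% in PBS1 and 2.48% against 0.690% in Combined. Taken singly, position 6 was hydrophobic in 10.8% of CDR3 and position 7 in 12.6%. The product of these shares is 1.36%, or 124 CDR3, where 74 were found. The observed share was below the product in 6 of 6 libraries, at a ratio of 0.528 in Combined and 0.449 to 0.891 in the other 5. The positions share D and J bases, so the product is a reference for size only and was not tested.

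**Figure D2:**
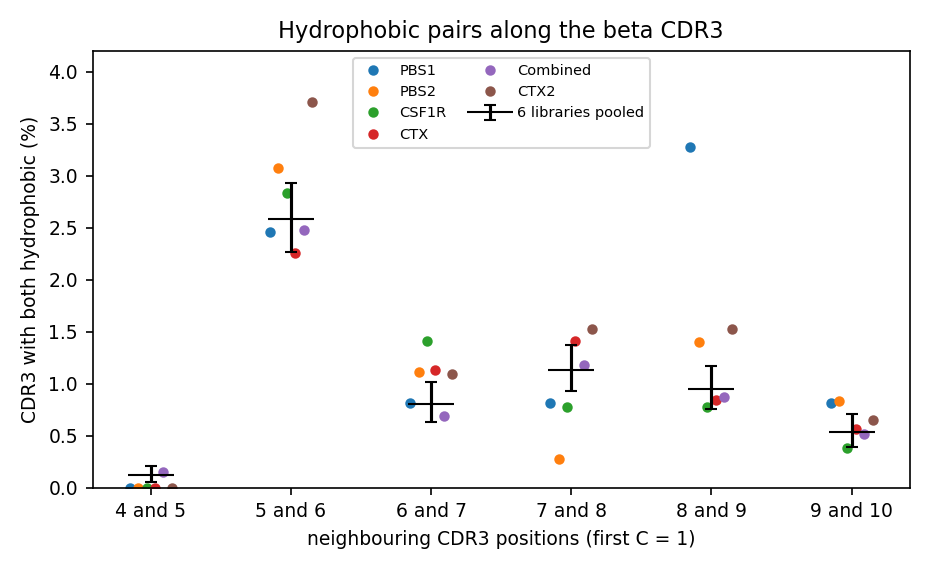
Share of distinct CDR3 with listed hydrophobic residues at both of 2 neighbouring positions (y axis, %) by position (x axis, first C = 1). Dots are libraries and black marks the pooled share with its exact 95% interval, and positions 6 and 7 (0.807%) lie below positions 5 and 6 (2.59%).

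The D gene was the feature in which the members differed most from other CDR3. TRBD2 was called in 50 members, TRBD1 in 4, and no D gene in 20. Among CDR3 with a D call, TRBD2 made up 1 of 1 member in PBS1, 3 of 3 in PBS2, 8 of 8 in CSF1R, 3 of 3 in CTX, 5 of 5 in CTX2 and 30 of 34 in Combined. In the other CDR3 its share was 46.6% in PBS1, 38.5% in PBS2, 37.6% in CSF1R, 35.7% in CTX, 37.4% in CTX2 and 37.5% in Combined. Every library of members lay above every library of other CDR3, 88.2% being the lowest value of the first and 46.6% the highest of the second. Pooled, the share was 92.6% (exact 95% interval 82.1 to 97.9) against 37.6% (36.5 to 38.7).

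The mean difference in TRBD2 share, members minus others within a library, was 59.2 percentage points (SD 5.64, n = 6 libraries, higher in 6 of 6). The two-sided exact sign-flip permutation test gave p = 0.03125, the smallest that 6 libraries allow, and 0.172 after Benjamini-Hochberg adjustment over 11 measures, so it did not pass. Within Combined, which alone holds many members, the shares of 88.2% and 37.5% differed past the threshold (Fisher's exact test, p = 1.45e-09, adjusted over 9 shares 1.31e-08). That test was added after the data were seen, and its units are rearrangements of a single library. The D call is read from some of the same bases as codons 6 and 7 and so is not independent of the rule.

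The J cluster showed the same direction. It is read mostly from other bases, but TRBD2 is normally joined to TRBJ2 only. All 50 members with a TRBD2 call used TRBJ2. In 7 members, all with TRBJ2-1, codon 7 itself matched the J gene. The J cluster is therefore not independent of the rule. TRBJ2 genes were used by 1 of 1 member in PBS1, 4 of 4 in PBS2, 10 of 11 in CSF1R, 3 of 4 in CTX, 5 of 5 in CTX2 and 41 of 49 in Combined. The other CDR3 used TRBJ2 in 55.4% (PBS1) to 64.3% (CTX) of cases, with 60.5% in Combined. Pooled, 86.5% of members (64 of 74, exact 95% interval 76.5 to 93.3) and 60.6% of other CDR3 joined TRBJ2. The mean difference over libraries was 30.9 points (SD 12.2, n = 6, higher in 6 of 6, two-sided exact sign-flip permutation p = 0.03125, adjusted 0.172). Within Combined the shares of 83.7% and 60.5% differed past the threshold (Fisher's exact test, p = 0.000632, adjusted 0.00284), again in a test added after the data were seen.

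**Figure D3:**
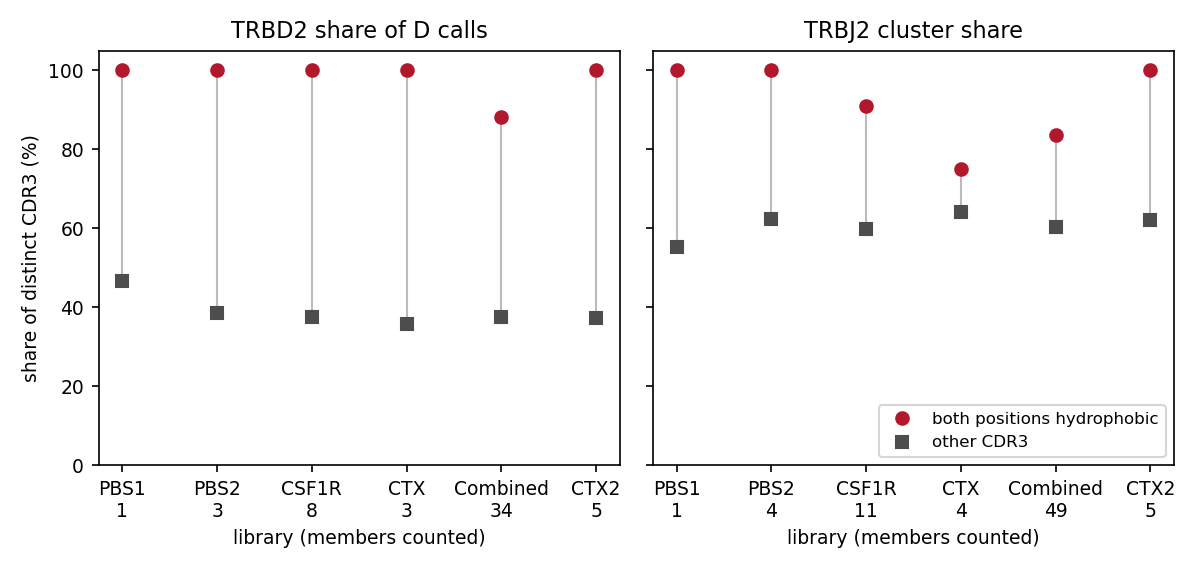
TRBD2 share of D calls (left) and TRBJ2 share (right), in % of distinct CDR3 (y axis), for members (circles) and other CDR3 (squares) in each library (x axis, with the number of members counted). Circles lie above squares in 6 of 6 libraries in both panels, on 1 to 8 D-called members outside Combined.

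TRBD2 was also the usual D gene within the TRBJ2 joins. Among members that used TRBJ2 and had a D call, 50 of 51 carried TRBD2 (98.0%), against 2460 of 4527 other TRBJ2 joins (54.3%). The mean difference over libraries was 44.5 points (SD 7.48, n = 6, higher in 6 of 6, exact sign-flip permutation p = 0.03125, adjusted 0.172 in place of the share over all J genes). In Combined it was 30 of 31 members against 54.7% (Fisher's exact test, p = 3.58e-07, not adjusted). Both comparisons were added after the data were seen, and the first did not pass. The D call shares bases with codons 6 and 7 here too, so neither comparison is independent of the rule. The 10 members with a TRBJ1 gene had 3 TRBD1 calls, 0 TRBD2 calls and 7 without a D call. D calls carry some error, since 209 of 3579 other TRBJ1 joins (5.84%) were called TRBD2, a join the gene order does not normally allow. On chromosome 6 of mm10, RefSeq (GRCm38.p6) places Trbd1 at 41533201 to 41533212, Trbj1-1 to Trbj1-7 from 41533864 to 41535687, Trbd2 at 41542163 to 41542176 and Trbj2-1 to Trbj2-7 from 41542754 to 41543856.

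The bases in the codons followed these calls. TGG stood at position 7 in 22 members, of which 22 had a TRBD2 call and 22 a TRBJ2 gene. CTG stood there in 14 members, with 13 TRBD2 calls. The letters CTGGG, searched on the coding strand, overlapped codons 6 and 7 in 39 of 74 members (52.7%) and in 1689 of 9093 other CDR3 (18.6%), and all 39 members had a TRBD2 call. The letters CAGGG overlapped these codons in 0 members and in 26.2% of other CDR3. CTG and TGG encode leucine and tryptophan, which the rule selects, CAG and AGG encode residues it does not, and the D call reads these bases too, so both counts describe the selection and carry no test. Of the 31 members with a tryptophan in the pair, 31 used TRBJ2, and the 30 with a D call were called TRBD2. The member without one was the CSF1R TRBV4 chain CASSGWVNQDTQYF.

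Tyrosine at position 7 mostly stood in the J end. It stood at position 7 in 10 members, of which 7 were 12-residue CDR3 with TRBJ2-1. To mark the germline part, the end of each CDR3 was compared with the most frequent base at each place among all CDR3 of its J gene. In these 7 members, and in no other, codon 7 lay inside the stretch that matched the J gene. Examples are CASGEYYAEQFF (TRBV13-2) and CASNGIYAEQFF (TRBV19) in Combined and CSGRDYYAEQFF (TRBV1) in CTX. Without such CDR3, 57 of 67 members (85.1%) and 61.9% of other CDR3 used TRBJ2. Codons 6 and 7 both fell between the matched V and J ends in 68.9% of members and 68.9% of other CDR3, and the unmatched stretch had a median of 11 bases in both.

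Single TRBJ genes differed less clearly than the cluster. TRBJ2-1 was used by 18 members (24.3%), followed by TRBJ2-5 (13), TRBJ2-7 (12), TRBJ2-3 (8), TRBJ2-2 (7) and TRBJ2-4 (6). TRBJ1-3 and TRBJ1-6 had 3 members each, and TRBJ1-1, TRBJ1-2, TRBJ1-4 and TRBJ1-5 had 1 each. In other CDR3 TRBJ2-1 made up 10.1% and TRBJ1-4 9.45%, so that TRBJ1-4 was nearly as common there. Members were 1.93% of TRBJ2-1 joins (exact 95% interval 1.15 to 3.03), 0.110% of TRBJ1-1 joins (0.00278 to 0.609) and 0.116% of TRBJ1-4 joins (0.00294 to 0.646). In Combined TRBJ2-1 was used by 24.5% of members and 9.94% of others (Fisher's exact test, p = 0.00269, adjusted over 27 genes 0.0727), and TRBJ1-1 by 0 of 49 members and 10.1% of others (Fisher's exact test, p = 0.0134, adjusted 0.181). The TRBJ2-1 gene itself supplies the tyrosine of 7 of its 18 members. Without CDR3 whose codon 7 matches the J gene, it was used by 16.4% of members (11 of 67) and 10.3% of others. Over libraries its mean difference was 24.3 points (SD 34.6, n = 6), and 7.04 with tyrosine, methionine and cysteine taken off the list or 11.9 without PBS1.

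Of the 27 TRBV and TRBJ genes with a mean share of at least 1%, 0 passed an adjusted p of 0.05 by the sign-flip permutation test over libraries (0%) and 0 by Fisher's exact test in Combined (0%). At an unadjusted p under 0.05 there were 8 and 4. No gene is read from the unadjusted sign-flip p, because a gene absent from the members of the small libraries is lower in each of them by its own background share.

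The members spread over 17 of the 22 TRBV genes found. TRBV13-2 led with 16 members (21.6%, against 13.6% of other CDR3). TRBV4 followed with 9 (12.2% against 6.90%), TRBV20 with 8 (10.8% against 7.24%), TRBV5 with 7 (9.46% against 10.6%) and TRBV19 with 6 (8.11% against 10.8%). TRBV13-3 and TRBV31 had 5 each, and TRBV1 and TRBV13-1 had 4 each. TRBV13-1 made up 5.41% of members and 11.4% of others. Averaged over libraries, TRBV13-2 was not higher: the mean difference was -1.20 points (SD 17.3, n = 6, exact sign-flip permutation p = 0.875, adjusted 0.969), because it had members in CSF1R, CTX2 and Combined only. In Combined it was used by 12 of 49 members (24.5%) and 13.3% of others (Fisher's exact test, p = 0.0323, adjusted 0.258). TRBV4 differed by 11.5 points (SD 10.7, higher in 4 of 6 libraries, exact sign-flip permutation p = 0.125, adjusted 0.260), with 3 of 49 members in Combined.

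**Figure D4:**
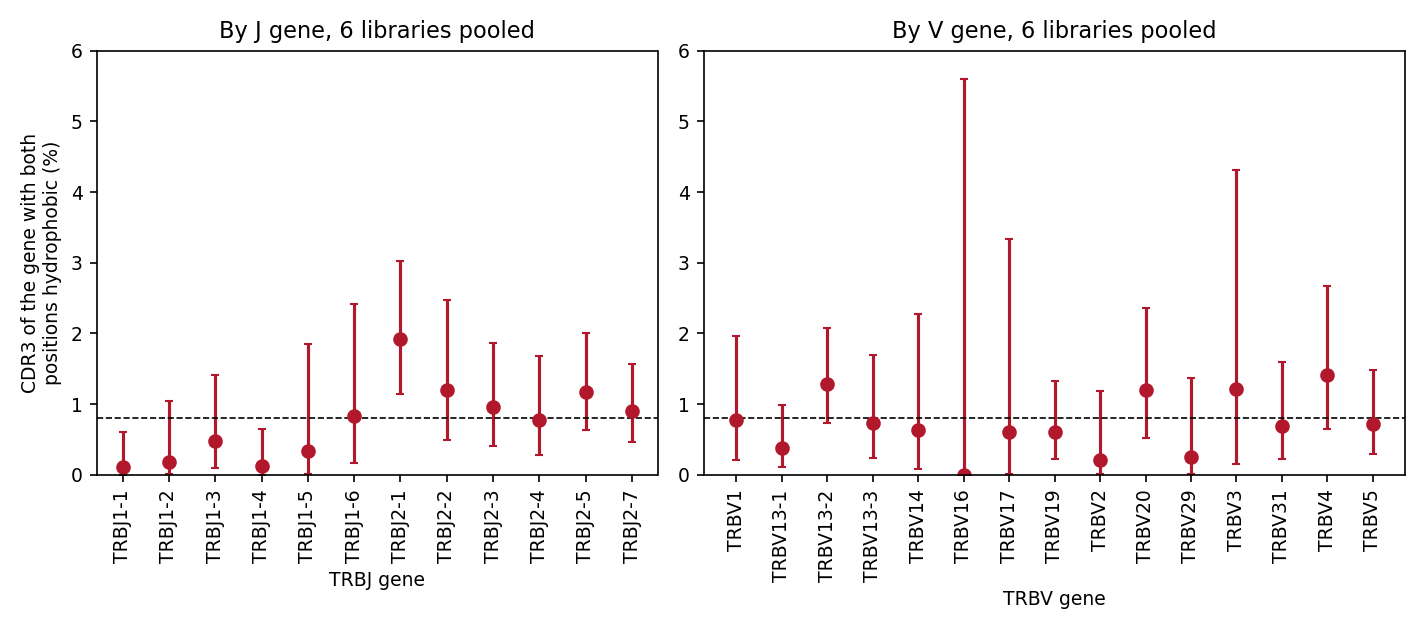
Share of the CDR3 of each TRBJ gene (left) and TRBV gene (right) that have hydrophobic positions 6 and 7 (y axis, %), 6 libraries pooled, with exact 95% intervals and the share over all CDR3 (0.807%) as a dashed line. Of the intervals, that of TRBJ2-1 (7 of its 18 members with a tyrosine from the J gene) lies above the line and those of TRBJ1-1 and TRBJ1-4 lie below it.

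V genes that Balb/c mice mostly lose to viral superantigens also gave members. TRBV12-2 and TRBV15 had 1 member each, out of 13 and 19 CDR3, and TRBV12-1, TRBV16 and TRBV26 had 0. The TRBV12-2 chain, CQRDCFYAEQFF in Combined, rested on 1 UMI and had no high-confidence contig. TRBV21, a rarely used gene not counted among these, had 1 member of 4 CDR3, which also rested on 1 UMI. The TRBV15 chain in CSF1R rested on 16 UMIs.

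Members were almost all found in 1 cell. The exception was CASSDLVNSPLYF, a TRBV13-3 and TRBJ1-6 chain found in 2 cells of CTX with 28 UMIs in all. Members in 2 or more cells thus numbered 0 of 1 in PBS1, 0 of 4 in PBS2, 0 of 11 in CSF1R, 1 of 4 in CTX, 0 of 5 in CTX2 and 0 of 49 in Combined. In the other CDR3 the shares in 2 or more cells were 10.7% in PBS1, 3.95% in PBS2, 1.70% in CSF1R, 10.9% in CTX, 11.3% in CTX2 and 0.724% in Combined. Pooled, 1.35% of members (exact 95% interval 0.0342 to 7.30) and 1.98% of other CDR3 (1.70 to 2.29) were in 2 or more cells, and the mean difference was -2.37 points (SD 9.25, n = 6, lower in 5 of 6, exact sign-flip permutation p = 0.531, adjusted 0.649). The difference was -5.68 without CTX, -0.698 without PBS1, -0.595 without CTX2, -1.05 without possible doublets and -6.48 with 3 or more UMIs (exact sign-flip permutation, adjusted p = 0.115), which removes the CTX member in 2 cells from that count. Of the 74 members 0 reached 10 cells. Of the 9093 other CDR3 17 did, the largest with 119 cells, so a like share among members was not detectable. With 1 to 5 members in each of the 4 libraries with larger clones or few cells, a lower or higher share was not detectable: in CTX2, 0 of 5 members has an exact interval up to 52.2%.

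Compared with CDR3 that had only 1 hydrophobic residue at positions 6 or 7, the members went further in the same direction. TRBD2 made up 27.6% of D calls where neither position was hydrophobic (7099 CDR3), 74.8% with position 6 alone (914), 73.7% with position 7 alone (1080) and 92.6% with both. TRBJ2 was used by 56.9%, 73.7%, 74.0% and 86.5% of these classes. Within libraries, members exceeded the CDR3 with 1 such residue by 22.4 points in TRBD2 share (SD 6.86, n = 6, higher in 6 of 6, exact sign-flip permutation p = 0.03125, adjusted over 3 measures 0.0469). For TRBJ2 the difference was 17.3 points (SD 10.1, n = 6, higher in 6 of 6, exact sign-flip permutation p = 0.03125, adjusted 0.0469). In Combined alone neither passed (88.2% against 74.1% and 83.7% against 73.7%, Fisher's exact test, adjusted p = 0.206 for both). This comparison was added after the data were seen, and both the D call and the J cluster are again tied to the rule. The 0.0469 depends on adjusting over only 3 measures. Against all other CDR3, the same sign-flip permutation p of 0.03125 adjusted to 0.172 for both shares and did not pass. The classes are defined by the same residues whose bases the D call reads, so no conclusion is drawn from the 0.0469. The share in 2 or more cells was 1.94%, 1.97%, 2.22% and 1.35% in the 4 classes, and members minus the CDR3 with 1 such residue gave -1.61 points (SD 7.02, n = 6, exact sign-flip permutation p = 0.594).

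**Figure D5:**
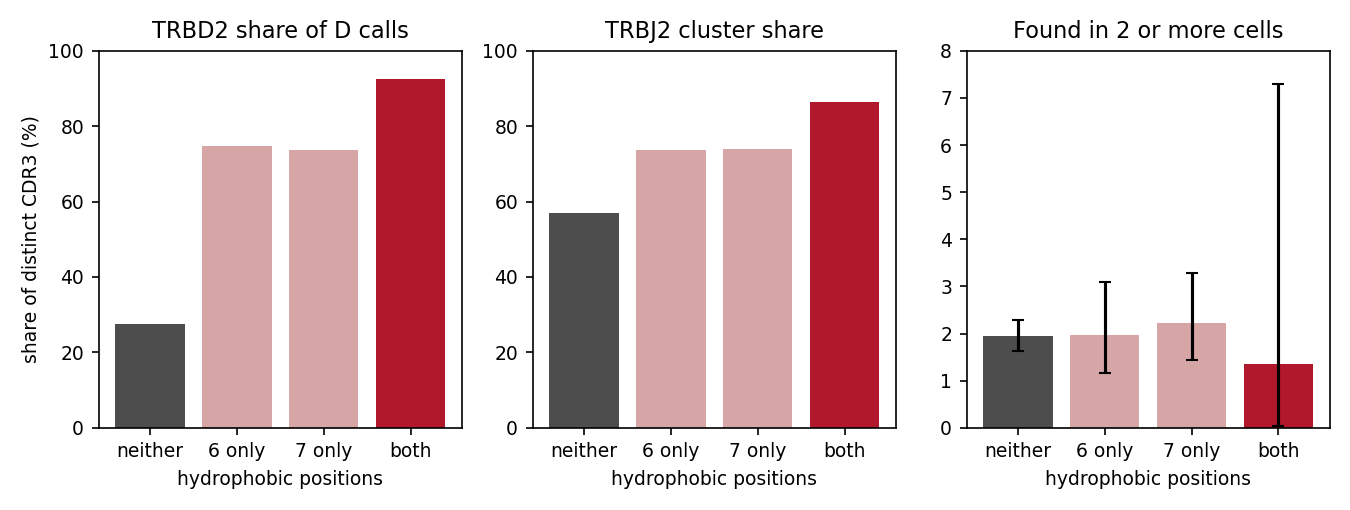
TRBD2 share of D calls, TRBJ2 share and share found in 2 or more cells (y axes, % of distinct CDR3, 6 libraries pooled) by which of positions 6 and 7 are hydrophobic (x axis). Bars rise from neither to both in the first 2 panels (27.6% to 92.6% and 56.9% to 86.5%), and the exact 95% intervals of the third overlap.

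Length followed no clear direction. Of the members, 13 had 12 residues, 11 had 13, 19 had 14, 17 had 15 and 14 had 16. Members made up 1.07%, 0.507%, 0.682%, 0.788% and 1.66% of CDR3 of these lengths. Of the 31 members of 15 or 16 residues, 30 had a TRBD2 call (17 of 17 and 13 of 14), against 6 of 13 of those with 12 residues. The mean length was 14.1 residues in members and 13.9 in others pooled, but it was lower in members in 4 of 6 libraries and the mean difference was -0.343 (SD 0.985, n = 6, exact sign-flip permutation p = 0.469, adjusted 0.649). Without PBS1, whose 1 member had 12 residues, it was -0.0265, and without CTX2 -0.587. Just outside the length limits, the same pair was found in 7 of 518 CDR3 of 11 residues (1.35%) and in 3 of 226 of 17 residues (1.33%).

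No difference in hydrophobic residues was detected at the positions next to the pair. Position 5 was hydrophobic in 21.6% of members and 22.3% of others (mean difference -2.31 points, SD 18.2, n = 6, exact sign-flip permutation p = 0.688, adjusted 0.756), and position 8 in 12.2% and 12.1% (3.26 points, SD 10.7, n = 6, exact sign-flip permutation p = 0.469, adjusted 0.649). A D gene of any kind was called in 73.0% of members and 78.1% of others. Members were lower in 4 of 6 libraries, but the mean difference was positive (4.53 points, n = 6, exact sign-flip permutation p = 0.531, adjusted 0.649), through PBS1 with 1 member (27.3 points) and CTX2 with 5 (19.6 points). With this spread between libraries, differences of several points in either direction would go undetected.

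No difference in capture depth was detected. They rested on 1 to 38 UMIs with a median of 8, and the median of both classes pooled was 8 per CDR3. Within libraries the median differed by 2.25 UMIs (SD 5.02, n = 6, exact sign-flip permutation p = 0.438, adjusted 0.649), from 3 fewer in CTX2 to 11.5 more in PBS1. Of the 74 members, 3 rested on 1 UMI and 4 had no high-confidence contig. Cells with 2 or more productive TRB contigs, which can be doublets or hold free receptor RNA, made up 13.3% of the members' cells (10 of 75) and 11.9% of the cells of other CDR3 (mean difference 2.41 points, SD 17.1, n = 6, exact sign-flip permutation p = 0.906, adjusted 0.906).

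Alpha chains paired with members were varied. A productive TRA was found with 60 of 74 members (81.1%, against 81.6% of others; mean difference 6.24 points, SD 9.58, n = 6, exact sign-flip permutation p = 0.188, adjusted 0.516). The 60 alpha chains used 29 TRAV genes, led by the TRAV6 family (14), TRAV9 (8), TRAV12 (7) and TRAV7 (6). Among the 7421 alpha chains of other CDR3 these families numbered 1276, 797, 594 and 977, so that TRAV6, TRAV9 and TRAV12 made up a larger and TRAV7 a smaller share in members. The families were not tested. A hydrophobic pair at positions 6 and 7 of the alpha CDR3 as well was found in 0 of 60 members (exact 95% interval up to 5.96%) and in 56 of 7421 others (0.755%). NKT cells (TRAV11 with TRAJ18) and MAIT cells (TRAV1 with TRAJ33) are T cells of nearly fixed alpha chain. Their alpha chains were found with 0 of 60 members and with 19 and 10 of 7421 others. Like shares among members were not detectable.

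No member recurred. None of the 74 combinations of TRBV gene and CDR3 amino acid sequence was found in 2 libraries, which allows a share of up to 4.05% at 3 counts. Of 8949 other combinations, 67 were found in 2 or more libraries (0.749%), so a like share among members was not detectable. Each member had a single nucleotide sequence. Of the 8949 other combinations 112 (1.25%) had 2 or more, and a like share among members was again not detectable.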

How the data were processed

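Receptor libraries were made with a 5′ droplet kit and mouse T cell V(D)J enrichment, per the labels' protocols, and the submitters' processing notes name Cell Ranger 3.0.2 with mm10 and GRCm38. The authors deposited a table of assembled contigs with raw read counts and UMI counts, cell calls, gene calls and CDR3, all taken as deposited. The 6 libraries held 311634692 reads and 213458 UMIs; 5 library names matched no label and were not used.

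Members and lists were chosen with earlier results of these data known. Clone size counted the cells per library that shared TRBV and CDR3 bases. Doublets were kept. Differences were taken within libraries and tested with two-sided exact sign-flip permutations, adjusted by Benjamini-Hochberg over 11 single measures or over 27 genes (mean share at least 1%). Fisher's exact test was run per library and per gene in Combined. Germline ends were matched to the commonest base (at least 50%) of each V or J gene, since no germline sequence was used here. Genes named are TRBV genes with at least 5% and TRBJ genes with at least 1% of other CDR3 on average over libraries (TRBV2, with 1 member, averaged 4.84%), residue pairs of at least 5% of members and the 3 leading members per library; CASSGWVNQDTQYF, the examples with tyrosine at position 7, TRBV12-2, TRBV15 and TRBV21 were chosen after their values were seen. Positions come from a RefSeq table in which all 34 V and J genes matched. Tests ran in scipy 1.17.1 on tables handled with pandas 2.3.3 and numpy 2.4.6 (Python 3.11.15), figures were drawn with matplotlib 3.10.9, and the scripts were tested on simulated data, where the sign-flip test passed rare unchanged genes more often than its level.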

Additional observations from a re-analysis of the deposited data

Results flagged for a closer look

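Of 13 sets of library values searched for a value far from the others, of which chance gives about 1 in 20, 1 held such a value. In CTX2, cells that held more than 1 productive TRB contig were more frequent in members than in other CDR3 by 35.0 percentage points (2 of 5 cells against 5.05%), while the other 5 libraries lay between -16.0 and 1.15 points. Without CTX2 the mean difference turned from 2.41 to -4.10 points. It rests on 2 cells.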

How the results depend on the processing

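Of 559 recomputed values of 44 results, 534 were labelled unchanged. For differences this meant the same direction and side of the threshold. For member shares it meant a value inside the main exact interval, and for genes past the threshold the same count. The values within Combined could not change when another library was left out. The 0.172 of TRBJ2 and TRBD2 over libraries ranged from 0.115 to 0.344, and in Combined both passed Fisher's exact test under 7 of 7 alternatives (adjusted p at most 0.0188 and 4.90e-07). Both shares stay tied to the rule under each alternative, and the units are rearrangements of a single library. These passes are therefore no independent support. Taking out cysteine left the members as they were, and moved position 5 to -2.65, position 8 to 3.30 and the hydrophobic pair of the alpha chain to -0.427 points. With F, I, L, V and W alone 54 members were left, and the shares were 0.589% pooled, 0.465% in Combined and 0 in PBS1. The differences then turned sign for the share in 2 or more cells (0.976 points), length (0.122 residues), position 5 (2.58), position 8 (-5.14), TRBV1 (-4.68) and TRBV13-2 (2.80). With 1 TRB contig per cell, position 5 turned to 0.704. With 3 or more UMIs TRBJ1-6 turned to -0.300, and within CDR3 lengths to -1.84. Leaving out single libraries moved the pooled share between 0.751% and 1.21% (without Combined), position 5 between -6.54 and 2.02 points, any D call between -0.0194 and 7.16, cells with 2 or more TRB between -4.10 and 6.09 and TRBV13-2 between -6.22 and 2.03. The same gave -3.11 (without PBS2) to 2.06 for TRBV31, -1.22 (without PBS2) to 8.07 for TRBJ2-5, -0.359 (without CTX) to 5.11 for TRBV20, -4.20 (without CTX) to 2.10 for TRBJ1-6 and -2.17 (without CTX2) to 9.84 for TRBJ2-3. TRBV13-2 turned to 2.03 without PBS1, 1.55 without PBS2 and 1.76 without CTX. Position 5 turned to 1.52 without PBS1. None of these differences passed in any setting run, and the cause was not tested. Cells with 2 or more TRB gave no value where such cells or possible doublets were removed. No paired analysis was possible because the labels give no number that pairs libraries. The number of members in 5 of the 6 libraries, 1 to 11, limits each comparison over libraries.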

Other observations

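In a comparison added after the sequences were seen, no residue group outside positions 6 and 7 differed past correction. Members pooled carried more acidic and fewer basic residues than other CDR3. They had 1.30 aspartate or glutamate residues per CDR3 against 1.06 pooled, higher in 6 of 6 libraries (mean difference 0.462, SD 0.416, exact sign-flip permutation p = 0.03125, adjusted over 5 residue groups 0.156). Lysine, arginine and histidine together numbered 0.284 against 0.437, lower in 5 of 6 libraries (-0.196, SD 0.177, exact sign-flip permutation p = 0.0625, adjusted 0.156). Glycine numbered 1.22 against 0.927 (0.139, SD 0.239, exact sign-flip permutation p = 0.188, adjusted 0.312). None passed correction. Aspartate stood at position 5, just before the pair, in 27 members (36.5%) and in 17.3% of other CDR3, and 13 of these 27 used TRBV13-2. Glycine stood at position 8, just after it, in 43.2% of members and 30.6% of others. Positions 5 and 8 adjoin the pair and can share D bases with it. These counts are therefore not independent of the rule and carry no test. The residue groups tested above include positions 5 and 8, so those tests are not independent of the rule either. No conclusion is drawn from them.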
